A study of Mus musculus with 4 samples.

Results

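The 4 lysophosphatidylcholine acyltransferase genes Lpcat1, Lpcat2, Lpcat3 and Lpcat4 were taken by symbol from the 32285 genes counted in nuclei of the mouse lateral septum (LS), and all 4 were measured in all 4 libraries. They were selected on their levels across cell classes and libraries, in UMIs of the gene per 1000000 UMIs of the class (CPM), in which Lpcat2 and Lpcat4 differed between strain backgrounds, so their own levels and strain differences are described below and not tested. In single-nucleus RNA sequencing (snRNA-seq), each RNA molecule caught from a nucleus is counted once by a molecular barcode (UMI). LS tissue was microdissected from male mice aged 6 to 8 weeks, snap-frozen, and pooled from 3 mice into each library, and nuclei were sequenced on the 10x Genomics 3′ platform. C57J 1 and C57J 2 were libraries of C57BL/6JNifdc mice, and the other 2 were libraries of BALB/c nude mice (Foxn1 knockout, deficient in T cells) and of BALB/c mice. The nude and BALB/c libraries shared the BALB/c background, and each was the single library of its group. C57J 1 was labelled batch 1 and the other 3 libraries batch 2. The mice of a library cannot be told apart, so the spread between libraries is that of pools.

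Lysophosphatidylcholine is left when phospholipase A removes a fatty acid from phosphatidylcholine, and lysophosphatidylcholine acyltransferases put a fatty acid from acyl-CoA back. This cycle of deacylation and reacylation, the Lands cycle, sets which fatty acids membrane phospholipids carry, including those of myelin and synaptic membranes. Lpcat1, Lpcat2 and Lpcat4 encode relatives of the enzymes that acylate glycerol phosphates, whereas Lpcat3 encodes a membrane-bound O-acyltransferase. Lpcat2 also acetylates lyso-platelet-activating factor to platelet-activating factor, a lipid mediator of inflammatory cells such as macrophages and microglia.

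In GENCODE vM21 on GRCm38, all 4 genes are protein-coding and on the + strand. Lpcat1 (ENSMUSG00000021608) spans chr13:73467197-73516422, Lpcat2 (ENSMUSG00000033192) chr8:92855339-92919279, Lpcat3 (ENSMUSG00000004270) chr6:124663027-124704418 and Lpcat4 (ENSMUSG00000027134) chr2:112239468-112247111. The promoter windows below, from RefSeq on GRCm38.p6, run 5′ to 3′ from 250 bases before each RefSeq start to 50 after it. RefSeq starts differ from the GENCODE starts above, and the whole Lpcat4 window lies inside the GENCODE span of that gene. They are shown because genes of 1 reaction begin here in windows of different composition. Capitals mark matches on either strand to the GC box GGGCGG, the CCAAT box, the TATA box TATAAA or the PU.1 core GAGGAA, PU.1 being a transcription factor of the myeloid lineage. The windows are chr13:73466981-73467280 for Lpcat1, chr8:92855083-92855382 for Lpcat2, chr6:124662854-124663153 for Lpcat3 and chr2:112239591-112239890 for Lpcat4, all on the + strand.
Lpcat1: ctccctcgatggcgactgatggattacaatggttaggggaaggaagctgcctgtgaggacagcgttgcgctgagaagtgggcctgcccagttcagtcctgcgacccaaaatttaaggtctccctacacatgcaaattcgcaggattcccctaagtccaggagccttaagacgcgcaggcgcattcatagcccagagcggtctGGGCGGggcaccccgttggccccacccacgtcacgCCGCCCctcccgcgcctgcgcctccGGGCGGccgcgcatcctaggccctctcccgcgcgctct
Lpcat2: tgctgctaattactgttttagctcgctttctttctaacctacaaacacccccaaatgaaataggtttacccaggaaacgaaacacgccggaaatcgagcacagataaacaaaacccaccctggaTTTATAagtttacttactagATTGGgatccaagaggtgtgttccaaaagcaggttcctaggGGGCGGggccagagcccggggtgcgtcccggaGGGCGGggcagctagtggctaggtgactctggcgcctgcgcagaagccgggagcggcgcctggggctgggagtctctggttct
Lpcat3: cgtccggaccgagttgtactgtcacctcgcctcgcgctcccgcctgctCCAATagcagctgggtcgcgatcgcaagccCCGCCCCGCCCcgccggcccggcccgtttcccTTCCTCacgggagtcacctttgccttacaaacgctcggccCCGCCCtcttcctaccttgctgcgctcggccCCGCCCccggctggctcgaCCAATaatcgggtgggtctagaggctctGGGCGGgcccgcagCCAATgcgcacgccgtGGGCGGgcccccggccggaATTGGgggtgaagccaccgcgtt
Lpcat4: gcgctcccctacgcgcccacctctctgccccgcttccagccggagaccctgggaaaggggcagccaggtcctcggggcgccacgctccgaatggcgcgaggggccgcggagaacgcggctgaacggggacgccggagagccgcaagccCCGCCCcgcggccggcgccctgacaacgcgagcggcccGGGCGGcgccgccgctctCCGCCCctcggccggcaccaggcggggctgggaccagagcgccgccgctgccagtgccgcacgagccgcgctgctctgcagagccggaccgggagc

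The Lpcat2 window held a match to the TATA box, on the reverse strand, and the other 3 windows held 0, while 13.6% of 32851 RefSeq mouse promoter windows of this length held 1 or more. It also held 2 GC boxes and 1 CCAAT box, and it was the poorest of the 4 in CpG, with 15 against 25 in Lpcat1, 36 in Lpcat3 and 45 in Lpcat4. The median over all windows was 7. Lpcat3 held 6 GC boxes, of which a pair overlaps, 4 CCAAT boxes and the only match of the 4 to the PU.1 core, whereas Lpcat1 and Lpcat4 held 3 GC boxes each and no match to the other motifs. GC boxes were in 35.7%, CCAAT boxes in 37.4% and PU.1 cores in 28.3% of all windows. Letter matches describe these windows and do not show that a factor binds there.

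Annotated transcripts of the 4 genes shared runs of at most 18 identical bases with each other, and those of Lpcat2 and its paralog Lpcat2b at most 20. Lpcat2b itself was counted at a mean of 0.112 CPM in LS neurons. Capns2 lies inside the Lpcat2 gene on the same strand, and the antisense gene Gm45472 overlaps its start, with 22 and 3 UMIs over all retained nuclei. The end of Lpcat3 overlaps Emg1 on the opposite strand, which had 3341 UMIs.

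After quality limits and removal of predicted doublets, the libraries held 10913 to 13075 nuclei with median depths of 4206 to 8394 UMIs, of which BALB/c was the deepest. Pairs of libraries shared 24 to 42 retained barcodes. Nuclei were clustered without the 4 genes, and a class name such as OPC or microglia stands here for nuclei with the marker genes of that class. The astrocytes include a cluster of 751 nuclei whose best marker list was ependymal and whose leading genes, such as Dnah12 and Cfap299, are those of cilia. Levels of the 4 genes in astrocytes are therefore also given without it, but thinned shares, fitted fold changes and other genes are not. Levels are CPM of the class in that library, each with exact 95% Poisson intervals that cover counting error only. Where 4 levels are given in a row, the order is C57J 1, C57J 2, nude, BALB/c. Since UMIs were counted per gene and not per base, levels are compared between classes and libraries and never between genes. Strain differences are log2 fold changes of nude and BALB/c against the 2 C57J libraries, from edgeR's quasi-likelihood fit to UMIs summed per library and class. Their standard errors (SE) are approximate: the absolute log2 fold change divided by the square root of its quasi-likelihood F statistic. The marker lists gave the names, so their sums describe the classes and do not check the names. The 5 OPC markers summed to 4756 to 6059 CPM in OPCs and 187 to 389 in microglia. The 7 microglia markers summed to 4306 to 7954 in microglia and 53.0 to 117 in OPCs.

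**Figure D1:**
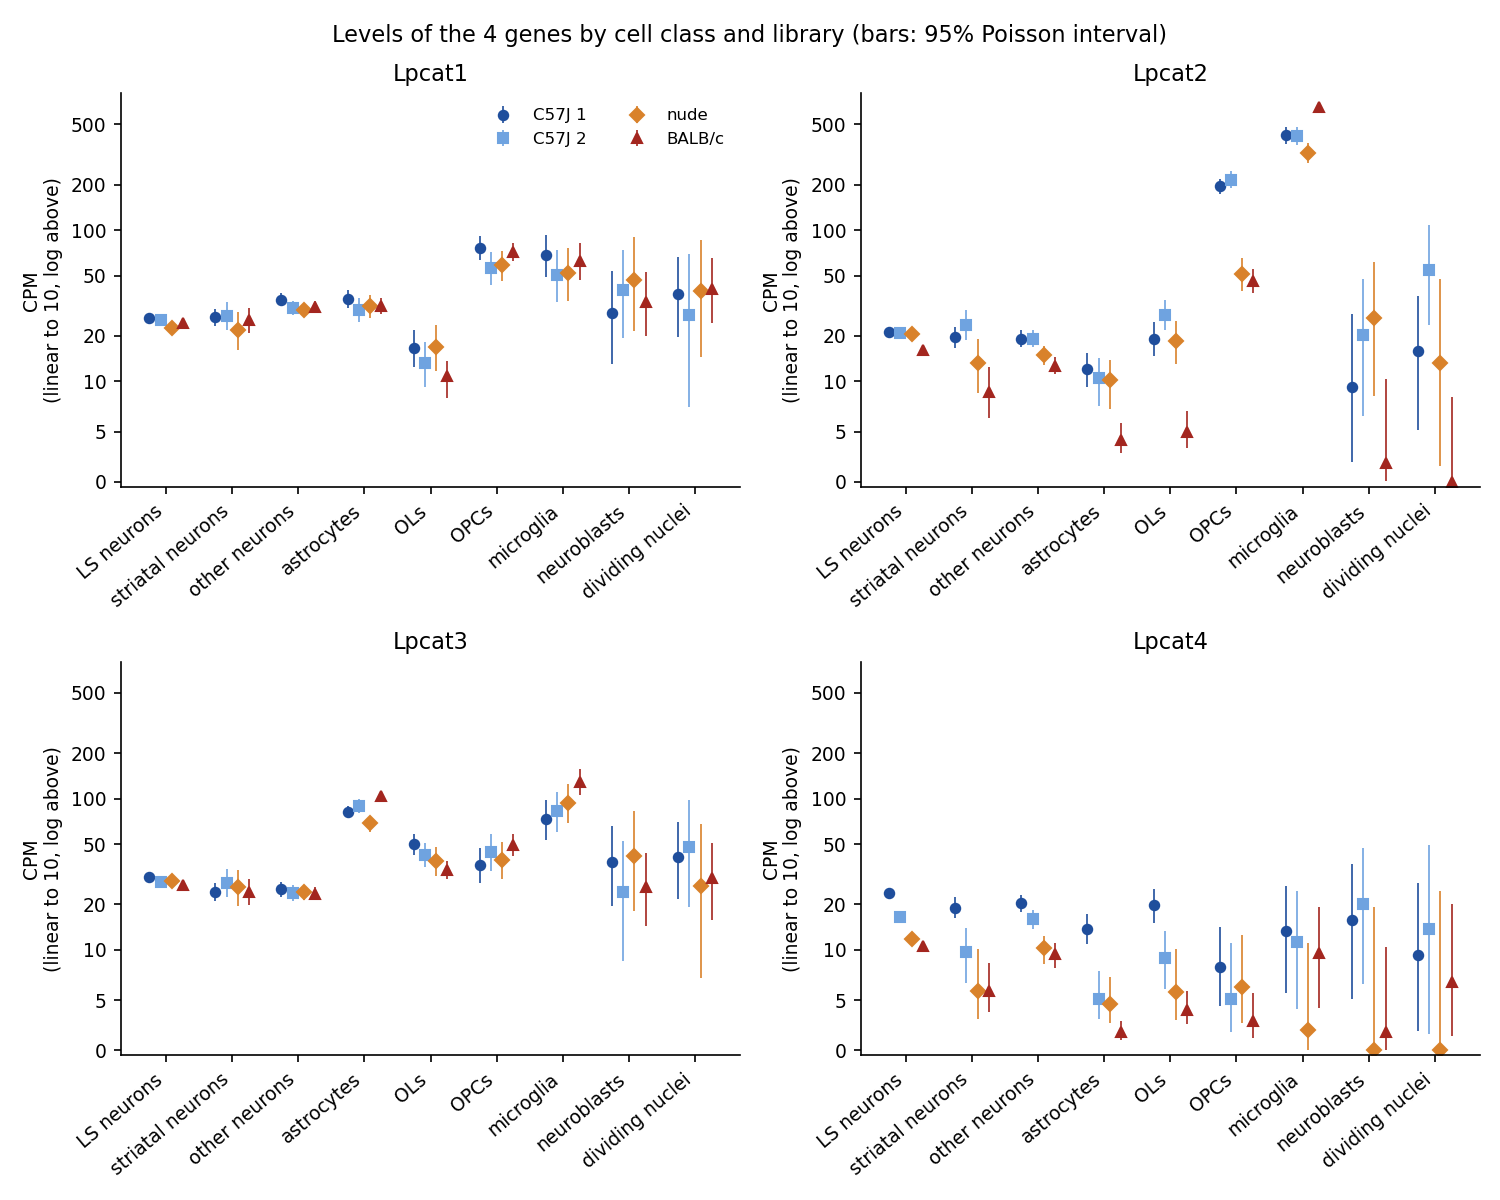
Levels of the 4 genes (vertical axis, CPM, linear to 10 and logarithmic above) in 9 cell classes; each point is 1 library and bars are 95% Poisson intervals. Lpcat2 stands highest in microglia in every library, and in OPCs the 2 C57J libraries lie at 195 and 216 while nude and BALB/c lie at 51.2 and 46.1.

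Lpcat2 was highest in microglia and next highest in OPCs, the precursors of the myelin-forming oligodendrocytes (OLs), and in OPCs its mean level was 48.6 CPM in nude and BALB/c against 206 in the C57J libraries. OPCs held 195 CPM in C57J 1 and 216 in C57J 2, against 51.2 in nude and 46.1 in BALB/c, from 307, 253, 65 and 128 UMIs. The groups did not overlap, nor did their counting intervals, which ran from 174 to 218 and 190 to 244 in C57J 1 and C57J 2, and from 39.5 to 65.2 and 38.5 to 54.8 in nude and BALB/c. The log2 fold change was -2.01 (SE 0.18), and it ranged from -2.07 to -1.95 as each library was left out in turn. Within batch 2 alone, that is without C57J 1, it was -2.07. Of all 10897 genes tested in OPCs, 0.147% were called lower in nude and BALB/c, at an adjusted p below 0.05 and a log2 change beyond 0.5, but Lpcat2 was chosen for this contrast and nothing is read from that share.

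The difference in OPCs was present in nuclei brought to equal depth. With every nucleus thinned to 1000 UMIs, 20.04% of OPCs in C57J 1 and 17.5% in C57J 2 had an Lpcat2 UMI, against 7.11% in nude and 4.02% in BALB/c. Thinned astrocytes, in which the gene was lowest, had 1.23%, 0.877%, 1.04% and 0.380% in the same order, so OPCs of every library lay above that level. Without thinning, 47.6%, 41.9%, 12.1% and 21.1% of OPCs had an Lpcat2 UMI, at median depths of 3227, 2588, 2509.5 and 5357 UMIs. Thinning left out 2 nude OPCs. The thinned counts gave a log2 fold change of -1.78.

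Both OPC clusters showed the same order of libraries by background. In the larger, of 1181 nuclei, Lpcat2 stood at 191 and 246 CPM in C57J 1 and C57J 2, and at 44.3 and 46.5 in nude and BALB/c. In the smaller, of 699 nuclei, the levels were 209, 181, 59.7 and 40.7. The smaller held 148, 241, 263 and 47 nuclei of the libraries in that order, so its BALB/c level rests on few nuclei. Most BALB/c OPCs, 450 nuclei, lay in the larger cluster. OPC markers in OPCs were not lower in the BALB/c background: they summed to 4904, 4756, 4961 and 6059 CPM, which put Lpcat2 at 3.98, 4.54, 1.03 and 0.761 UMIs per 100 OPC marker UMIs. OL markers in OPCs were lower in nude and BALB/c, at 652 and 528 CPM against 885 and 1000, and their part in the difference was not tested. Microglia markers in OPCs were 1.44%, 2.40%, 2.05% and 0.666% of their level in microglia. Lpcat2 in OPCs was 46.3%, 51.3%, 15.8% and 7.11% of its level in microglia. The part of microglial RNA in the OPC levels was not tested.

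In microglia, the resident macrophages of the brain, the backgrounds overlapped. Lpcat2 stood at 422 CPM in C57J 1 and 421 in C57J 2, against 324 in nude and 648 in BALB/c. The C57J libraries lay between the other 2, and the counting intervals of nude (276 to 378) and BALB/c (595 to 705) did not meet. The log2 fold change was 0.24 (SE 0.41). It turned to -0.33 without BALB/c and rose to 0.66 without nude, so 1 library decided its sign. The microglia markers followed the same order, with 5714, 4860, 4306 and 7954 CPM, and per 100 marker UMIs Lpcat2 was 7.39, 8.66, 7.53 and 8.15. Neuron markers in microglia ran the other way, from 1455 in BALB/c to 3374 in nude, and their part in these levels was not tested.

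**Figure D2:**
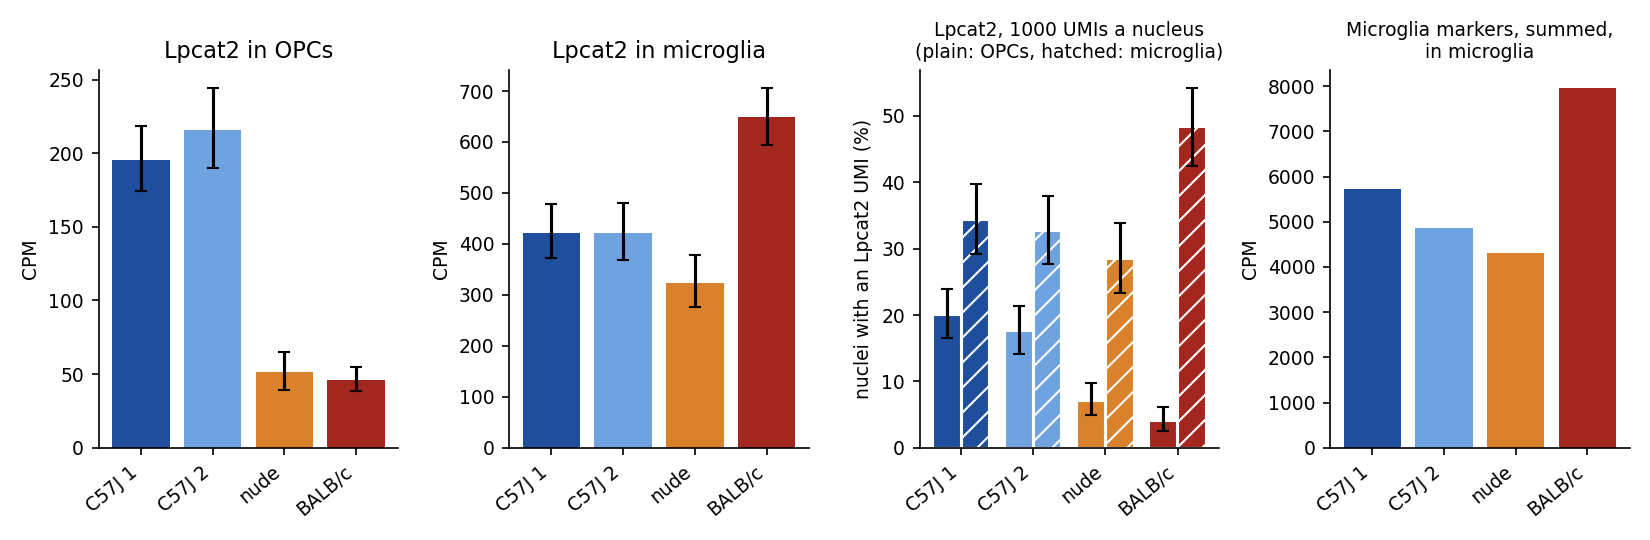
Lpcat2 in OPCs and microglia by library (bars: CPM with 95% Poisson intervals), the share of nuclei with an Lpcat2 UMI after thinning to 1000 UMIs (with 95% binomial intervals), and the summed microglia markers in microglia. In OPCs nude and BALB/c lie far below C57J 1 and C57J 2, whereas in microglia BALB/c is the highest and nude the lowest, the order of the microglia markers.

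In OLs, Lpcat2 was far lower than in OPCs in the C57J libraries, at 19.1 and 27.6 CPM, and stood at 18.3 in nude and 4.97 in BALB/c. Nude lay close to C57J 1, and BALB/c stood apart. The log2 fold change of -1.13 (SE 0.55) became -0.34 without BALB/c and -2.08 without nude. The libraries filled different OL clusters: of 1521 BALB/c OLs, 561 and 552 lay in a pair of clusters that held 22 to 48 nuclei from each C57J library. Of the 2 OL clusters with at least 50 nuclei in every library, the one led by genes such as Slc5a11 and Hapln2 held Lpcat2 at 48.3, 50.1, 25.4 and 16.4 CPM, from 7 to 25 UMIs per library. The other, led by genes such as Opalin and Mal, had 5, 17, 1 and 0 UMIs, too few for a comparison. Astrocytes held lower levels, with 12.1, 10.5, 10.2 and 4.19 (log2 fold change -0.68, SE 0.43), and the difference was -0.13 without BALB/c and -1.30 without nude. Without the ciliary cluster they stood at 11.6, 8.79, 9.91 and 4.00, so nude lay between the C57J libraries. Lpcat2 in astrocytes was 2.87%, 2.49%, 3.15% and 0.647% of its level in microglia, and microglia markers were 1.84%, 2.74%, 2.53% and 0.933% of theirs. In OLs these values were 4.51%, 6.55%, 5.65% and 0.767% for Lpcat2, and 1.65%, 2.45%, 2.48% and 0.752% for the markers. The part of microglial RNA in these levels was not tested. Astrocytes too were spread unevenly, with 698 BALB/c nuclei in a cluster of 860 and 472 nude nuclei in a cluster of 745. Newly forming OLs, between OPCs and OLs, numbered 7 to 39 nuclei per library and held 25 Lpcat2 UMIs in all, too few for a comparison.

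Neurons held Lpcat2 at low levels, which differed between neuron classes in how far the backgrounds lay apart. LS neurons stood at 21.2, 20.8, 20.4 and 16.1 CPM, and nude differed from C57J 2 by less than the width of either interval (log2 fold change -0.18, SE 0.14). Neurons of neither LS nor striatal identity stood at 19.2, 19.1, 14.9 and 12.6 (-0.47, SE 0.15, and -0.28 after thinning). Striatal neurons stood at 19.5, 23.6, 13.2 and 8.98 (-0.96, SE 0.26). A striatal cluster led by Drd3, a dopamine receptor gene, held 417 nuclei, 321 of them from C57J 1, and carried 73.4 CPM. Without it striatal neurons stood at 12.3, 19.98, 12.2 and 6.83, so nude lay next to C57J 1, and the log2 ratio of the mean levels was -0.77, against -0.96 with it. In both remaining striatal clusters the backgrounds overlapped, at 14.1, 22.1, 14.7 and 6.00 CPM in the larger and 9.08, 16.1, 8.24 and 9.11 in the smaller.

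Among the 11 LS neuron clusters with at least 50 nuclei in every library, mean Lpcat2 ranged from 5.10 CPM in a cluster led by genes such as Gpc3 and Tacr1 to 28.0 in a cluster led by genes such as Ano2 and Ntf3. The backgrounds overlapped in 8 of these clusters, and nude and BALB/c lay below both C57J libraries in 2 and above them in 1. Microglia markers in LS neurons were 0.5004% to 1.35% of their level in microglia, and Lpcat2 there was 2.48% to 6.30% of its own. The part of microglial RNA in the neuronal levels of Lpcat2 was not tested. Neuroblasts and dividing nuclei had 14 and 15 Lpcat2 UMIs in all and were not fitted. Among dividing nuclei, BALB/c had 0 UMIs, for which a fixed limit of 3 UMIs, not the Poisson interval, gives 6.84 CPM.

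Lpcat1, known for making the dipalmitoyl phosphatidylcholine of lung surfactant, was highest in OPCs and microglia, and its backgrounds overlapped in both. OPCs held 76.4 CPM in C57J 1 and 56.3 in C57J 2, against 58.3 in nude and 71.7 in BALB/c. The 2 C57J libraries spanned the other 2, and the log2 fold change was 0.05 (SE 0.22). Without C57J 1 it was 0.31. The same OPCs that differed in Lpcat2 thus held levels of Lpcat1 that did not separate by background. Microglia held 68.2, 50.5, 51.7 and 62.8, from 146 UMIs in all. In each library this was below the OPCs of that library, although the ranges of the 2 classes over the libraries overlapped. The order of these 2 classes was not tested.

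Lower in the order of Lpcat1, neuroblasts, dividing nuclei and astrocytes overlapped, at means of 37.3, 36.4 and 31.9 CPM, and astrocytes overlapped with neurons of other identity at 31.4. Astrocytes stood at 35.1, 29.6, 31.4 and 31.4, and at 35.8, 28.4, 31.4 and 30.2 without the ciliary cluster. Striatal neurons and LS neurons followed at means of 25.1 and 24.6, and OLs were the lowest of the 9 classes, with 16.6, 13.3, 16.9 and 10.7, below every library of the other 8. The order OPCs above OLs thus held for Lpcat1 and Lpcat2 in each library. In LS neurons Lpcat1 stood at 26.2, 25.3, 22.6 and 24.3, and although nude and BALB/c were both below the C57J libraries, the log2 fold change of -0.11 was no larger than its SE of 0.11 and ran from -0.17 without BALB/c to -0.041 without nude.

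Lpcat4, also known to acylate lysophosphatidylethanolamine, had its highest means in the 3 neuron classes. In each library LS neurons stood above other neurons and these above striatal neurons, by little in C57J 2 for the first pair (16.4 and 16.0 CPM). Over the libraries each class overlapped with the next. Nude and BALB/c lay below both C57J libraries in all 5 classes in which Lpcat4 could be fitted. In astrocytes this place of nude and BALB/c was lost without the ciliary cluster, and in OLs it did not hold in every cluster. LS neurons held 23.8 CPM in C57J 1 and 16.4 in C57J 2, against 11.7 in nude and 10.6 in BALB/c, from 1108, 605, 515 and 640 UMIs. The groups did not overlap, but C57J 1, the only library of batch 1, stood about as far above C57J 2 as C57J 2 stood above the other 2. The log2 fold change was -0.83 (SE 0.20), and within batch 2 alone it was -0.51. The log2 ratio of C57J 1 to C57J 2 was 0.54.

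Other neurons held 20.2, 16.0, 10.3 and 9.53 CPM of Lpcat4, with a log2 fold change of -0.86 (SE 0.19) and of -0.66 within batch 2. Striatal neurons held 19.0, 9.81, 5.90 and 5.91, with -1.32 (SE 0.37) and -0.68 within batch 2. In each neuron class nude and BALB/c lay closer to each other than the 2 C57J libraries did. After thinning to 1000 UMIs, 2.45%, 1.57%, 1.29% and 0.697% of LS neurons had an Lpcat4 UMI. Thinned astrocytes, in which Lpcat4 was low, had 1.38%, 0.712%, 0.460% and 0.109%, so thinned LS neurons stood above them in every library. Unthinned, the shares of LS neurons were 18.3%, 10.9%, 7.95% and 13.3%, with a median depth of 12825 UMIs in BALB/c against 6493 to 8122 in the others.

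Levels of Lpcat4 were also described by neuronal cluster. Of 18 neuronal clusters with at least 50 nuclei in every library, 17 had nude and BALB/c both below the 2 C57J libraries: 10 of 11 clusters of LS neurons, both striatal clusters and all 5 of other neurons. The log2 ratio of the mean levels ran from -1.60 to -0.51 over the 18, with a median of -0.82. The clusters come from the same 4 libraries and are no replicates of each other. The exception was the cluster led by genes such as Gpc3 and Tacr1, in which BALB/c stood at 11.8 CPM and C57J 2 at 8.83. In the other 17 the backgrounds came closest in a cluster where C57J 2 stood at 15.0 and nude at 14.7, as the plot of clusters shows. For Lpcat1, Lpcat2 and Lpcat3, nude and BALB/c lay below both C57J libraries in 8, 6 and 4 of the 18. All 8 of Lpcat1 were LS neuron clusters. The share over all genes is not given by cluster, so nothing is read from these counts.

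**Figure D3:**
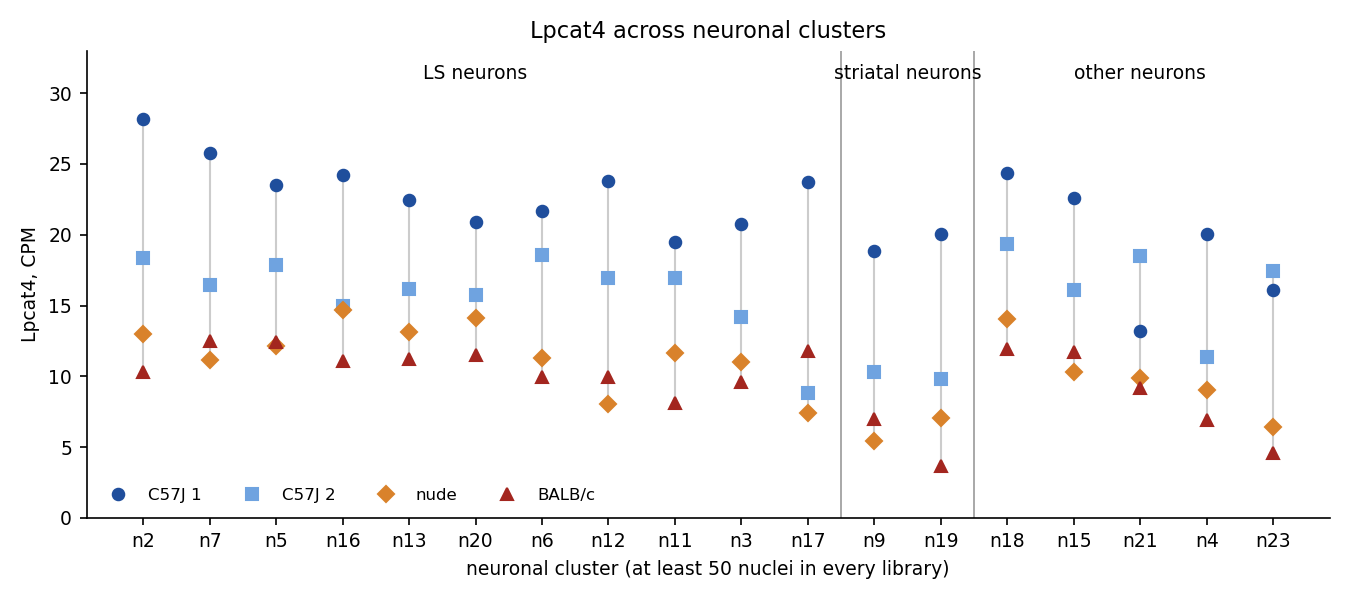
Lpcat4 (vertical axis, CPM) in the 18 neuronal clusters with at least 50 nuclei in every library, ordered within each class by mean level; each point is 1 library. In 17 of them nude and BALB/c lie below both C57J libraries, and C57J 1 is the highest library in most. The clusters share the same libraries and are no replicates, the share over all genes is not given, and nothing is read from this count.

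In astrocytes and OLs the mean level of Lpcat4 was below that of each neuron class, and C57J 1 stood further above C57J 2 than in neurons. OLs lay next to striatal neurons, above them in C57J 1 and below them in the other libraries. Astrocytes held 13.7, 5.11, 4.59 and 1.80 CPM, and OLs 19.7, 9.20, 5.78 and 4.01. The log2 fold changes were -1.65 (SE 0.63) and -1.57 (SE 0.47), and without C57J 1 they were -0.69 and -0.90. Without the ciliary cluster astrocytes held 13.6, 4.82, 4.95 and 1.73, so nude lay just above C57J 2. The OL cluster led by genes such as Opalin and Mal held 24.4, 7.87, 9.37 and 2.29, from few UMIs. There too nude lay above C57J 2. In the OL cluster led by genes such as Slc5a11 and Hapln2 the order was kept, at 21.9, 8.01, 3.63 and 3.29. Neuron markers reached astrocytes and OLs at 1118 to 2355 and 934 to 2761 CPM, the lowest value being that of BALB/c and the highest that of nude in both classes. In astrocytes Lpcat4 was 57.5%, 31.1%, 39.2% and 16.9% of its level in LS neurons and the 5 neuron markers were 30.1%, 34.1%, 35.5% and 16.99% of theirs, so that only in C57J 1 did Lpcat4 stand well above the markers. In OLs Lpcat4 was 82.6%, 55.9%, 49.4% and 37.8% of its LS neuron level and the markers 28.4%, 31.4%, 41.7% and 14.2%. The part of neuronal RNA in the glial levels was not tested.

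OPCs, microglia, neuroblasts and dividing nuclei held 35, 23, 11 and 8 Lpcat4 UMIs in all and did not pass the filter on low counts. Nude had 0 Lpcat4 UMIs in neuroblasts and in dividing nuclei, for which the fixed limit of 3 UMIs gives 15.7 and 19.8 CPM.

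Lpcat3, a target gene of the liver X receptors that places polyunsaturated fatty acids in phosphatidylcholine, was highest in microglia and astrocytes. Astrocytes held 82.1 CPM in C57J 1 and 89.7 in C57J 2, against 68.4 in nude and 104 in BALB/c. The C57J libraries lay between nude and BALB/c, and the log2 fold change was 0.09 (SE 0.24), which became -0.30 without BALB/c and 0.41 without nude. Without the ciliary cluster astrocytes stood at 85.3, 93.6, 70.2 and 106, with the C57J libraries again between nude and BALB/c. Microglia held 73.2, 82.3, 93.4 and 129, with nude and BALB/c above both C57J libraries and a log2 fold change of 0.56 (SE 0.30). The counting intervals of nude (68.7 to 124) and C57J 2 (59.8 to 110) overlapped, and without BALB/c the log2 fold change was 0.32. Per 100 microglia marker UMIs, Lpcat3 was 1.28, 1.69, 2.17 and 1.62, in which BALB/c lay between the C57J libraries.

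The other classes formed a lower group for Lpcat3. OPCs stood at 36.3 to 49.4 CPM and OLs at 33.8 to 49.99, below every astrocyte and microglia library, and neurons at 23.5 to 30.2. OLs showed the opposite order to microglia, with 49.99 and 42.6 in C57J 1 and C57J 2 and 38.6 and 33.8 in nude and BALB/c, and a log2 fold change of -0.31 (SE 0.21). Not every OL cluster kept this order: in the one led by genes such as Opalin and Mal, nude stood at 46.9 and C57J 2 at 45.6. The neuron classes differed by background by -0.05 (LS), -0.01 (striatal) and -0.02 (other) on the log2 scale, with SE of 0.11, 0.19 and 0.13. After thinning to 1000 UMIs these values were 0.11, -1.07 and 0.047, so the striatal value depends on that setting. Thinning left striatal neurons of nude and BALB/c with 478000 and 431000 UMIs, against 2203236 and 4233605 before it. The thinned striatal value thus rests on few Lpcat3 UMIs, and the part of depth in it was not tested. Astrocyte markers in LS neurons were 2.12% to 4.45% of their level in astrocytes, and Lpcat3 was 25.6% to 41.9% of its own. The part of astrocyte RNA in the neuronal levels of Lpcat3 was not tested.

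Summed over all retained nuclei, Lpcat2 and Lpcat4 were lower in nude and BALB/c and Lpcat1 and Lpcat3 were not separated beyond their error. Lpcat2 stood at 26.5, 27.6, 21.3 and 19.2 CPM (log2 fold change -0.40, SE 0.11) and Lpcat4 at 21.3, 14.6, 10.4 and 8.80 (-0.89, SE 0.22, and -0.56 without C57J 1). Lpcat1 stood at 29.2, 27.1, 25.4 and 27.0 (-0.09, SE 0.11) and Lpcat3 at 33.9, 32.7, 31.01 and 34.1 (-0.02, SE 0.11). Sums over all nuclei move with the make-up of a library, and fewer nuclei of a class and less RNA per nucleus cannot be told apart in them. With 323 to 389 microglia in 3 libraries and 294 in BALB/c, the class with the most Lpcat2 was a small part of each library.

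Nude and BALB/c lay below both C57J libraries for 3 of the 4 genes over all nuclei, against 24.7% of 20462 genes tested. Among the pairs of gene and class that could be fitted, the genes so placed were Lpcat1, Lpcat2 and Lpcat4 in LS neurons (26.5% of all genes) and striatal neurons (22.3%), Lpcat2 and Lpcat4 in other neurons (22.7%) and astrocytes (25.9%), Lpcat2, Lpcat3 and Lpcat4 in OLs (20.9%), and Lpcat2 in OPCs (24.2%). Lpcat3 in microglia was the only fitted pair above both C57J libraries, where 13.8% of genes lay. Lpcat2 and Lpcat4 in astrocytes kept this place only with the ciliary cluster. Lpcat1 and Lpcat2 in striatal neurons overlapped in both clusters with at least 50 nuclei in every library. Lpcat2 in LS neurons overlapped in 8 of 11 such clusters. Lpcat3 and Lpcat4 in OLs overlapped within the cluster led by genes such as Opalin and Mal. Because the rule behind the choice of genes used this contrast, these counts describe the genes and nothing is read from them.

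**Figure D4:**
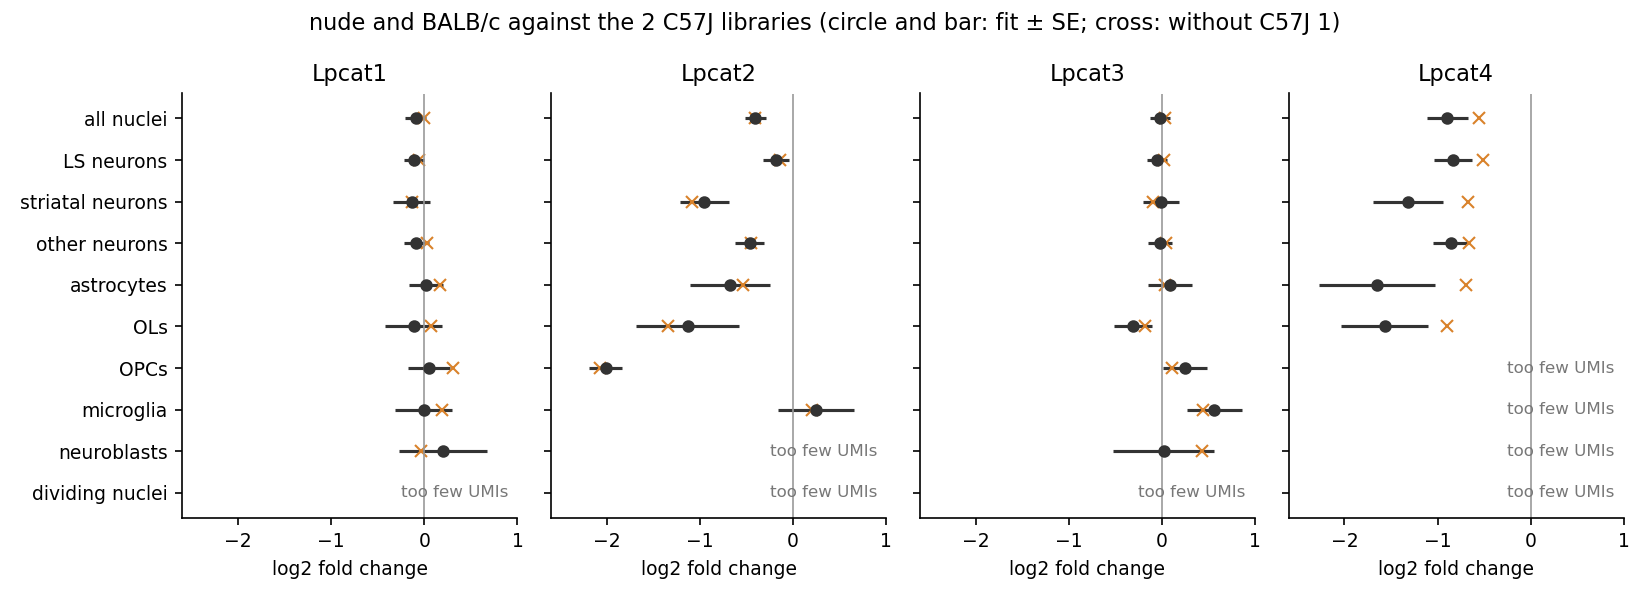
Log2 fold changes of nude and BALB/c against the 2 C57J libraries for each gene, over all nuclei and in 9 classes (circles with bars: fit and SE; crosses: the fit without C57J 1; classes without enough UMIs are marked). Lpcat2 in OPCs lies at -2.01 with and -2.07 without C57J 1, while Lpcat4 moves toward 0 without C57J 1 in every class fitted, from -0.83 to -0.51 in LS neurons.

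The genes next to the 4 members did not pass the test. The 3 nearest protein-coding genes on each side gave 24 genes and 60 pairs of gene and class with enough UMIs, of which edgeR's quasi-likelihood test called 0 and DESeq2 0, with 3 pairs at an unadjusted p below 0.05. Over all genes tested, the share called in either direction was 2.49% in LS neurons, 0.572% in striatal neurons, 1.02% in other neurons, 0.0637% in astrocytes, 0.0715% in OLs, 0.294% in OPCs and 0.0176% in neuroblasts, and 0% in microglia and dividing nuclei. Nop10, 14815 bases after Lpcat4 and encoding a subunit of box H/ACA ribonucleoproteins, had the lowest adjusted p. It stood at 12.1, 11.6, 7.89 and 9.66 CPM in LS neurons, with a log2 fold change of -0.41 (SE 0.17, adjusted p = 0.318 by edgeR's quasi-likelihood test). Nude and BALB/c also lay below both C57J libraries for Nop10 in striatal neurons, OLs and OPCs. In other neurons, astrocytes and microglia the backgrounds overlapped. The other pairs at an unadjusted p below 0.05 were in OLs: Nop10 (-0.62, SE 0.26, edgeR adjusted p = 0.919) and Clptm1l beside Lpcat1 (-0.77, SE 0.22, edgeR adjusted p = 0.644). Around Lpcat2 the neighbours Mmp2, Irx6, Irx5, Slc6a2, Ces1a and Ces1b were so rarely counted that only 2 pairs could be tested. Beside Lpcat1 lie Mrpl36, Ndufs6, Irx4, Slc6a3, Clptm1l and Tert, and beside Lpcat3 C1s2, C1rb, C1s1, Phb2, Ptpn6 and Grcc10.

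Of 90 other genes of phospholipid remodelling in 6 lists, 1 passed the test in 1 class: Pafah2 rose in LS neurons of nude and BALB/c. The lists gave 571 pairs of gene and class with enough UMIs in the 9 classes, and the pair called is 0.175% of them. In LS neurons, 1 of 81 list genes tested was called higher and 0 lower, while 1.05% and 1.45% of all genes tested there were. Pafah2, which encodes an acetylhydrolase that breaks down platelet-activating factor and oxidized phospholipids, stood at 6.26, 5.43, 11.5 and 10.2 CPM. The log2 fold change was 0.91 (SE 0.17, adjusted p = 0.0463 by edgeR's quasi-likelihood test). The log2 fold change was 0.93 with nuclei thinned to 1000 UMIs (edgeR adjusted p = 0.178) and 0.93 with clusters at resolution 2 (edgeR adjusted p = 0.054), neither of them a call. As each library was left out it ran from 0.79 to 1.04, and the call was lost without BALB/c or nude. In those 4 fits 1 side is a lone library, assumed to vary like the other side. In striatal neurons Pafah2 stood at 6.10, 3.99, 12.7 and 8.27 (log2 fold change 0.96, SE 0.36, edgeR adjusted p = 0.433).

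In LS neurons 38.3% of the 81 list genes lay below both C57J libraries, where 26.5% of all genes did, and 13.6% above both, where 18.9% did, with a median log2 fold change of -0.07 over the list and -0.01 over all genes. In OPCs the shares were 22.4% of 67 below, against 24.2% of all genes, and 11.9% above, against 12.7%. An unadjusted edgeR p below 0.05 was also common over all genes. In LS neurons 12 of the 81 list genes had one, against 2764 of 18682 genes. In OPCs 7 of the 67 did, against 837 of 10897. Nothing is read from the unadjusted counts of single lists. The first list, of other acyltransferases for lysophospholipids and glycerol phosphates, had 0 of 93 pairs called by edgeR and by DESeq2, and 5 at an unadjusted p below 0.05 in edgeR. Its highest gene was Lpgat1 in OLs, at 479, 427, 439 and 575 CPM (log2 fold change 0.23, SE 0.28, edgeR adjusted p = 0.999).

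Phospholipases A and lysophospholipases, which make or remove the substrate of the 4 enzymes, had 0 of 165 pairs called, and 15 at an unadjusted p below 0.05. Enpp2, which encodes autotaxin and turns lysophosphatidylcholine into lysophosphatidic acid, was the highest, at 1232, 1261, 1075 and 1502 CPM in OLs (log2 fold change 0.11, SE 0.33, edgeR adjusted p = 0.999). Pla2g7, a secreted acetylhydrolase of platelet-activating factor that was singled out after its values were seen, came closest to a call in this list. It stood at 16.3, 18.3, 9.77 and 7.37 in other neurons (-1.01, SE 0.19, edgeR adjusted p = 0.0701) and at 12.04, 13.01, 7.98 and 6.10 in LS neurons (-0.81, SE 0.18, edgeR adjusted p = 0.0728). DESeq2 called it lower in both classes. In astrocytes, where it was far higher, Pla2g7 stood at 190, 183, 122 and 195, and the backgrounds overlapped (-0.16, SE 0.26, edgeR adjusted p = 0.924). Astrocyte markers summed to 486, 311, 357 and 205 CPM in other neurons and to 489, 350, 379 and 272 in LS neurons. The part of astrocyte RNA in the neuronal levels of Pla2g7 was not tested.

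The other 4 lists had 1 call, that of Pafah2, by edgeR and by DESeq2. Synthesis of phosphatidylcholine and phosphatidylethanolamine had 0 of 130 pairs called and 10 at an unadjusted p below 0.05, and its highest gene Etnk1, an ethanolamine kinase, stood at 291, 261, 257 and 277 CPM in LS neurons (log2 fold change -0.03, SE 0.09, edgeR adjusted p = 0.941). Ptdss1 of that list, which encodes phosphatidylserine synthase and was also picked after its values were seen, stood at 44.2, 47.9, 33.3 and 33.3 in LS neurons (-0.44, SE 0.093, edgeR adjusted p = 0.0632). Acyl-CoA supply, desaturation and import of lysophosphatidylcholine had 0 of 83 and 6 in the same terms, and its highest gene was the acyl-CoA synthetase Acsl3 in astrocytes, at 725, 636, 599 and 1021 (0.33, SE 0.30, edgeR adjusted p = 0.856). Ether lipids and platelet-activating factor had 1 of 76. Receptors of lysophospholipids had 0 of 24 and 1, and their highest gene was the lysophosphatidylserine receptor Gpr34 in microglia, at 229, 217, 175 and 353, the same order of libraries as Lpcat2 there (0.28, SE 0.38, edgeR adjusted p = 0.964).

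**Figure D5:**
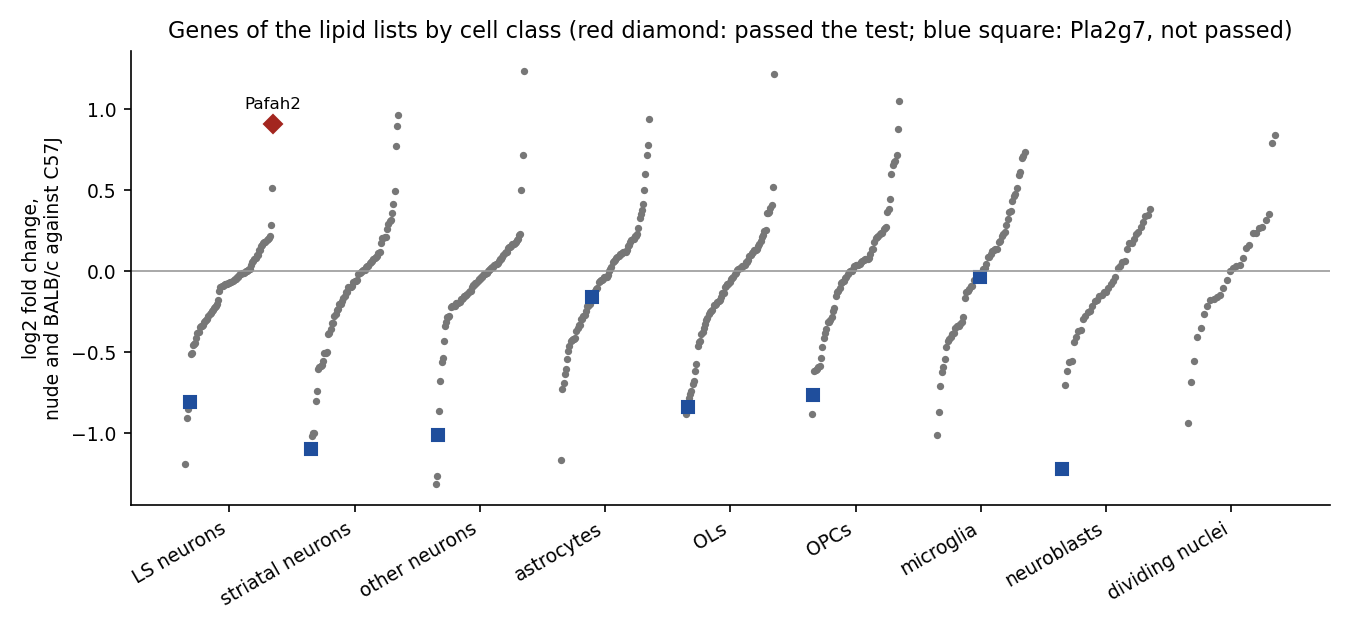
Log2 fold changes of the genes of the 6 lipid lists with enough UMIs (nude and BALB/c against C57J, vertical axis), sorted within each of 9 classes; each dot is 1 gene. The red diamond is Pafah2 in LS neurons, at 0.91 the 1 pair that passed the test, and blue squares are Pla2g7, which did not pass in any class.

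Over 36 points, the 9 classes in the 4 libraries, the genes most like each member in log2 level among 10580 genes were found by Pearson's r, given as a description because points share libraries and depth. Lpcat1 was most like Rnf180 (0.91), Fchsd2 (0.90) and Lrp1 (0.88), which were highest in microglia. Lpcat2 was most like Ptprj (0.85), Vsir (0.84) and Ldlrad4 (0.83), also highest in microglia. For Lpcat3 the genes were Irak2 (0.94), Sat1 (0.94) and Trp53cor1 (0.90). For Lpcat4 they were Kifc2 (0.76), Cul9 (0.74) and Snapc1 (0.73), the lowest of these values. Among the members themselves r was highest for Lpcat1 with Lpcat2 (0.55) and lowest for Lpcat1 with Lpcat4 (-0.20). Lpcat4 had only 35, 23, 11 and 8 UMIs in OPCs, microglia, neuroblasts and dividing nuclei. The part of low counts in its values of r was not tested.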

How the data were processed

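The authors aligned reads to mm10 with Cell Ranger 7.0.1, per the labels, and deposited unnormalized UMI counts per gene and barcode. The handling of intronic reads is not given in the sources used here. Barcodes with 200 to 6000 genes, 300 to 50000 UMIs and under 2% mitochondrial UMIs were kept, as in the paper's methods. Doublets were predicted from simulated pairs at 0.8% per 1000 nuclei and removed. Nuclei were clustered (3000 variable genes, 40 components, 6 neighbours per library, Leiden resolution 1), with non-neuronal nuclei clustered again at resolution 4. Non-neuronal clusters were named by the best marker score if it reached 0.5 and at least 3 markers were counted. The 1 whose best list was ependymal was kept with astrocytes because its astrocyte score passed 0.5. Neuronal clusters were named LS at an LS score of at least 0.3, or striatal at a striatal score of at least 0.4. That score also had to be no lower than those of the other regional lists, medial septal among them. Remaining neuronal clusters were called other neurons, and 1006 nuclei were left unnamed. The 4 genes, the 90 list genes, sex-linked genes and genes that differed by strain were left out of clustering.

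UMIs summed per library and class were fitted with edgeR 4.0.16 (filterByExpr, TMM, quasi-likelihood F test) on the 2 C57J libraries against nude and BALB/c. Calls needed a Benjamini-Hochberg adjusted p under 0.05 over all genes tested and a log2 change beyond 0.5 in either direction. The fit was also run on simulated counts with the same dispersion for all genes and no batch. These differ from the data, so nothing is read from that run. Depth ranged from 72912922 to 125998527 UMIs per library. Named list genes were those called and, in lists without a call, the highest gene, with Pla2g7 and Ptdss1 added after their values were seen, and named neighbours and like genes followed fixed counts. The members and lists were chosen with earlier results of these data known. Alternatives were DESeq2 1.42.0, no filter, doublets kept, thinning to 1000 UMIs, over 500 genes and 1000 UMIs, resolution 2, the mean over nuclei, each library left out and, chosen after seeing the data, striatal neurons and astrocytes without 1 cluster each. Promoters came from RefSeq, matched by symbol for 4 of 4 genes.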

Additional observations from a re-analysis of the deposited data

Results flagged for a closer look

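Lpcat3 was placed on opposite sides of the C57J libraries in 2 glial classes. In OLs nude and BALB/c lay below both C57J libraries (log2 fold change -0.31, SE 0.21, and -0.18 without C57J 1), and in microglia they lay above both (0.56, SE 0.30, and 0.32 without BALB/c), so the 2 values lay 0.87 apart on the log2 scale. The difference between the classes was not tested. Per 100 microglia marker UMIs, BALB/c lay between the C57J libraries. OLs held 576 Lpcat3 UMIs in all and microglia 242. The libraries filled different OL clusters, and 2 OL clusters had at least 50 nuclei in every library. In the one led by genes such as Opalin and Mal the backgrounds overlapped, at 45.3, 45.6, 46.9 and 38.9 CPM. In the one led by genes such as Slc5a11 and Hapln2 nude and BALB/c were lower, at 41.7, 32.0, 25.4 and 29.6.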

How the results depend on the processing

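No paired analysis was possible because each library was its own pool of mice. Nothing in the labels pairs the mice of a library with those of another, and nude and BALB/c have 1 library each. Of 116 values of the main comparisons under alternative settings, 98 moved by less than their error or within 1.5 times a count, and 18 moved further. For the genes in other classes, 213 and 32 did so. Thinning to 1000 UMIs turned the log2 fold change of Lpcat1 in OPCs to -0.22. It left 439000 to 497000 UMIs of OPCs per library, against 1172413 to 2775845 before it. Leaving out each library in turn gave ranges of -0.17 to -0.0045 for Lpcat1, -0.48 to -0.32 for Lpcat2 and -1.17 to -0.56 for Lpcat4 over all nuclei, and of -0.17 to 0.31 for Lpcat1 in OPCs, -0.33 to 0.66 for Lpcat2 and 0.32 to 0.77 for Lpcat3 in microglia, and -1.10 to -0.51 for Lpcat4 in LS neurons. The value farthest from the main one came without C57J 1 for Lpcat4 and for Lpcat1 in OPCs, and without BALB/c for Lpcat2 and Lpcat3 in microglia. Pairs of list gene and class called, 1 in the main fit, numbered 3 with DESeq2, 6 without a filter, 3 with doublets kept, 0 after thinning and 0 at resolution 2, and 0 to 13 as libraries were left out, the lowest without BALB/c and the highest without nude. Calls over all genes also changed with the setting. With DESeq2 in place of edgeR they rose from 466 to 654 in LS neurons and from 9 to 95 in astrocytes. In neuroblasts and dividing nuclei they stayed at 1 and 0. The counts of list pairs by setting are given without the share of all genes, so nothing about the lists is read from them. Pairs of neighbour and class called stayed at 0 in every setting run. With 2 libraries against 2, and 1 each of nude and BALB/c, strain background, pool and, for C57J 1, batch are only partly separable.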
